A study of Homo sapiens with 6 samples.

Results

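Genes of cholesterol, fatty acid and triglyceride synthesis were examined in DU145 prostate cancer cells that overexpressed the transcription factor TFEB. The genes were 46 symbols looked up in the deposited expression table, and 38 of the 46 had a row among the 10542 listed genes. FDFT1, HSD17B7, CYP51A1, INSIG1, ELOVL1, ACAT2, FADS1 and HILPDA were not analysed here. DU145 is a long-established human prostate cancer line. DU145-TFEB cells had received a lentivirus carrying TFEB and DU145-vector cells the empty lentivirus, and stable lines were selected with puromycin, so the selection and the virus were common to both groups. Whether a line grew from 1 clone is not given in the sources used here. Polyadenylated RNA of 3 libraries per group was sequenced. The values are normalised counts, that is, reads counted on a gene divided by 1 size factor per library.

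Cholesterol is built from acetyl-CoA through mevalonate, isoprenoids, squalene and lanosterol. The transcription factor SREBP-2 (gene SREBF2) drives most genes of this route when sterols in the endoplasmic reticulum run low. SCAP escorts SREBPs to the Golgi for cleavage, and the INSIG proteins hold SCAP back when sterols are plentiful. SREBP-1 (SREBF1) mainly drives fatty acid synthesis, in which ACLY supplies acetyl-CoA, the carboxylases ACACA and ACACB make malonyl-CoA and FASN builds palmitate. Fatty acids are then elongated, desaturated and esterified into triglycerides, which are stored in lipid droplets coated by perilipins. TFEB is best known as an activator of lysosomal and autophagy genes, and cancer cells of the prostate are known for active lipid synthesis.

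TFEB and the SREBPs are basic helix-loop-helix factors. They bind E-boxes (CACGTG), and SREBPs also bind sterol regulatory elements, often next to NF-Y, which binds CCAAT. Promoter windows from 250 bases before to 50 bases after the gene's start were taken from RefSeq (GRCh38.p14) and matched 34 of the 38 genes. SQLE, FASN, DGAT1 and DGAT2 had no window, so their promoters were not examined. Both strands were searched. CACGTG was found in 5 of the 34 windows (14.7%), against 7.43% of all 27305 promoters and 10.3% of the 7619 promoters of listed genes. The longer TCACGTGA, which contains CACGTG, was found in none of the 34 and in 1.04% of all promoters. TCACNCCAC, a form of the sterol regulatory element, was found in 2 windows (5.88%), against 1.15% of all promoters. It was in 0 of 13 promoters of sterol synthesis and 0 of 8 of the fatty acid genes. The matches were in 1 of 5 promoters of sterol control and transport and 1 of 8 of triglyceride and lipid droplet genes. CCAAT was found in 20 windows (58.8%), against 35.7% of all promoters. Of the 13 sterol synthesis promoters, 11 held CCAAT, with 30 matches between them. It was present in 2 of 5 promoters of sterol control and transport, 4 of 8 of the fatty acid genes and 3 of 8 of the triglyceride and lipid droplet genes.

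The 4 E-boxes before RefSeq's start and the TCACNCCAC match of SREBF2 are shown with 10 bases on each side, as examples of letters that factors of these families can recognise. RefSeq's start is not always the outermost start of the expression table, and the E-boxes of SC5D, SCAP, ELOVL5 and PLIN2 lie inside the gene spans of that table. Capitals mark the match, and each is written on the gene's own strand.
SC5D, chr11:121292630-121292655 (+), 131 bases before the start: gcgcggcgccCACGTGaccgcggaga
SCAP, chr3:47475984-47476009 (-), 58 bases before the start: ccgctgggcgCACGTGcggagggcgg
ELOVL5, chr6:53349146-53349171 (-), 211 bases before the start: ttcccagagaCACGTGgaaccgaggg
PLIN2, chr9:19127546-19127571 (-), 69 bases before the start: tgccgcgggtCACGTGctgcggaggc
SREBF2, chr22:41832962-41832990 (+), 133 bases before the start: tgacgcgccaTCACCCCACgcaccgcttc
The E-box of LSS lay after its start and is not shown. Among genes that were higher in DU145-TFEB cells, 3 of 22 windows held CACGTG (SCAP, PLIN2 and LSS), and among genes that were lower 2 of 12 did (SC5D and ELOVL5). A match of letters is a description and not a measured binding site.

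The targeted gene was checked first. TFEB stood at 6221 ± 160 normalised counts (SD, n = 3) in DU145-TFEB and 125 ± 1.82 in DU145-vector libraries, a log2 fold change of 5.62. The libraries held between 13999961 and 16511477 reads on the listed genes, and each of the 38 genes had at least 95 reads in every library. Among fixed epithelial markers, 3 of 5 had a row, and KRT8, KRT18 and KRT19 were abundant but lower in DU145-TFEB cells, with log2 fold changes of -0.68, -0.78 and -0.38. Every gene of the table had a deposited adjusted p below 0.05 from the same 6 libraries, so a gene passing the test again is no finding, and only direction and size are informative. The median log2 fold change over all listed genes was -0.36. The labels do not tie replicates to separate cultures, so p-values measure the spread between these libraries, and with 3 against 3 an exact permutation test cannot go below 0.1. In these bulk samples, fewer cells using a gene and less RNA per cell cannot be told apart.

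All 38 genes passed limma's test at adjusted p below 0.05, 25 of them higher and 13 lower in DU145-TFEB cells. Of all listed genes 47.6% were higher and 52.4% lower at the same cutoff. The genes that were higher spanned log2 fold changes of 0.28 to 1.33, and those that were lower spanned -2.12 to -0.31. Log2 fold changes refer to log2(normalised count + 1) throughout. With the additional cutoff of 1.5 on the absolute log2 fold change, which defined DEGs, 0 genes were higher and 3 lower, namely STARD4, GPAM and SC5D; SC5D was under the cutoff with edgeR (-1.45), DESeq2 (-1.29) and median-ratio size factors (-1.28), each of which left 2. Of all listed genes, 2.54% were higher DEGs and 16.5% lower DEGs. Leaving out 1 library gave 2 lower DEGs without DU145-TFEB 1, DU145-TFEB 2 or DU145-vector 2 and 4 without DU145-TFEB 3 or DU145-vector 1. The 2 groups of libraries did not overlap for 37 of the 38 genes, against 99.3% of all listed genes, the exception being SCD.

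**Figure D1:**
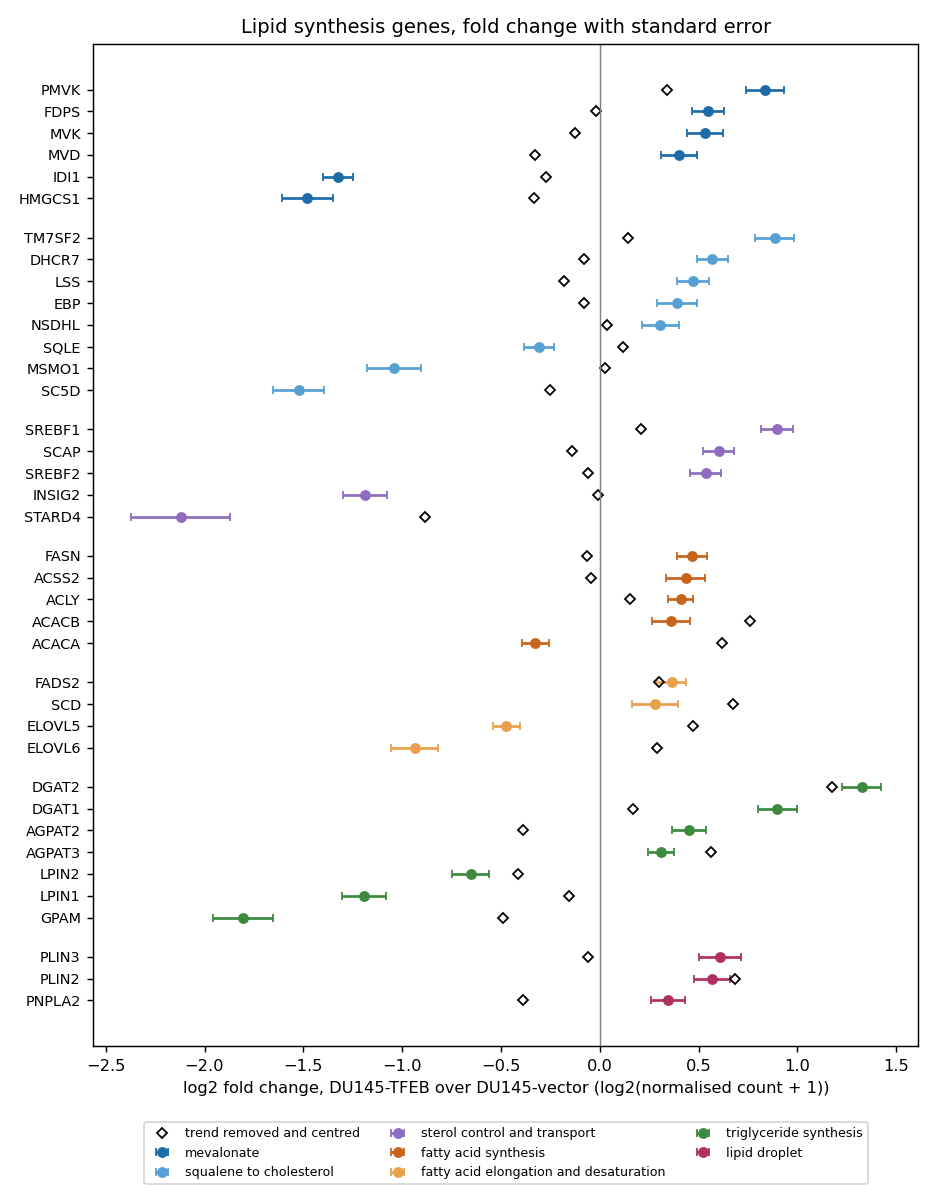
Log2 fold change of the 38 lipid synthesis genes (x axis, DU145-TFEB over DU145-vector), grouped by role. Filled points with bars give the fold change with its standard error (n = 3 per group), and open diamonds the value after the trend against GC content and length was removed and each library was centred on its median. Filled points reach from -2.12 (STARD4) to 1.33 (DGAT2), and many diamonds lie near 0 or on the other side of it.

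The direction of change followed the GC content of the transcript. Across the 38 genes Spearman's rho between GC content and log2 fold change was 0.78, and across 10537 listed genes it was 0.74; genes of the same libraries are not independent replicates. The 13 genes that were lower had GC contents of 34.2% to 48.9%, and the 25 that were higher had 47.1% to 65.9%. Of the 23 genes with at least 50% GC all 23 were higher, as were 91.5% of the 4568 listed genes in that range. Below 50% GC, 2 of 15 were higher (SCD and PLIN2), against 14.0% of 5969 listed genes. Their median log2 fold changes were 0.47 in the GC-rich and -1.04 in the GC-poor range, beside 0.58 and -1.06 for all listed genes. Each gene was also set beside all listed genes within 1 percentage point of its GC content, and 13 lay above and 25 below the median of these.

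**Figure D2:**
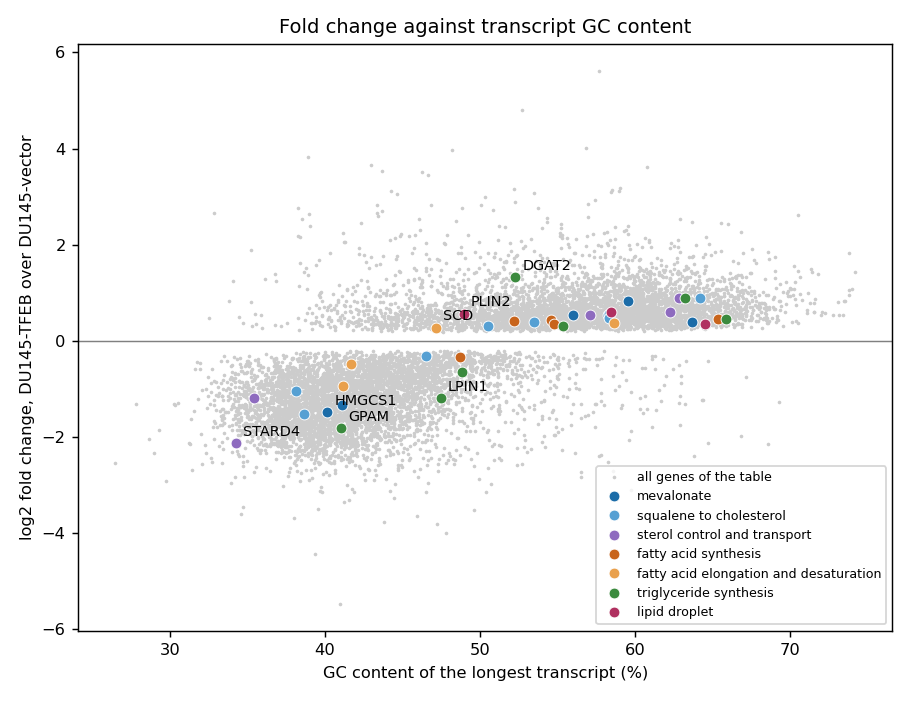
Log2 fold change (y axis, DU145-TFEB over DU145-vector) against the GC content of the longest transcript in percent (x axis). Grey points are the listed genes with a GC value and coloured points the 38 lipid synthesis genes by role; those of at least 50% GC all lie above 0, and of those below it SCD and PLIN2 do.

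When the trend against GC content and length was removed from each library, 6 of the 38 genes were higher and 26 lower, and 6 did not pass (limma, adjusted p below 0.05). Of all listed genes, 15.2% were higher and 54.5% lower in that fit, with a median log2 fold change of -0.32. When each library was centred on its median as well, 13 were higher and 11 lower, and 14 did not pass, against 32.1% and 28.8% of the table. The median of the 38 genes was 0.38 as deposited, -0.37 with the trend removed and -0.03 when centred. The sign of 24 genes turned in at least 1 of these fits. What part GC content, or a difference in RNA quality or library preparation, has in the fold changes was not tested. Direction and call held under all 17 alternatives for 4 genes that were higher (DGAT2, PLIN2, ACACB and AGPAT3) and 6 that were lower (STARD4, GPAM, SC5D, HMGCS1, IDI1 and LPIN2). Of the 4, ACACB (0.36 against 0.55) and AGPAT3 (0.31 against 0.55) lay below the median of genes of like GC content. Of the 6, SC5D stood at -1.52 against -1.41 for such genes and GPAM at -1.81 against -1.24. The counts of genes that held and that turned were not made for all listed genes, so neither can be called particular to the 38.

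Sterol synthesis was split within the pathway. Of the 14 genes with a row (18 looked up), 9 were higher and 5 lower, with a median of 0.40, while with the trend removed 0 were higher and 12 lower, and after centring 1 was higher and 5 lower. HMGCS1 (ENSG00000112972, chr5:43289395-43313512 of GRCh38) makes HMG-CoA at the entry of the mevalonate pathway. Its normalised counts were 812, 664 and 983 with TFEB overexpression against 2134, 2349 and 2302 with the empty vector. All DU145-TFEB values lay below all DU145-vector values, with a log2 fold change of -1.48 ± 0.13 (SE; limma adjusted p = 8.45e-06), -0.67 with the trend removed and -0.33 after centring. Genes of like GC content had a median of -1.30. IDI1, which isomerises the isoprenoid unit, had 1453, 1399 and 1573 normalised counts in DU145-TFEB and 3791, 3817 and 3469 in DU145-vector libraries, a log2 fold change of -1.32 ± 0.08 (SE), -0.61 with the trend removed and -0.27 after centring, beside a median of -1.24 for genes of like GC content. The remaining mevalonate genes were higher in DU145-TFEB cells as deposited. PMVK, the second kinase of the pathway, rose most, from 863 ± 56.4 to 1546 ± 158 normalised counts (SD, n = 3). FDPS, which makes farnesyl diphosphate, rose 1.46-fold, the mevalonate kinase MVK 1.45-fold and the decarboxylase MVD 1.32-fold. After trend removal MVK, MVD and FDPS had negative values (-0.46, -0.67 and -0.36), and PMVK stood at 0.00. After centring PMVK was higher (0.34, limma adjusted p = 0.0012) and MVD lower (-0.33, limma adjusted p = 0.0011). MVK (-0.12) and FDPS (-0.02) did not pass in that fit.

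From squalene to cholesterol, 5 of 8 genes were higher and 3 lower, and with the trend removed 0 were higher and 7 lower. After centring 0 were higher and 2 lower, and 6 did not pass, with a median of -0.03. SC5D (ENSG00000109929, chr11:121292453-121308694), the sterol C5-desaturase whose promoter E-box is shown above, was among the genes that were lower. It had 288, 284 and 352 normalised counts in DU145-TFEB and 854, 1022 and 789 in DU145-vector libraries. The highest DU145-TFEB library was thus far below the lowest DU145-vector library, with a log2 fold change of -1.52 ± 0.13 (SE; limma adjusted p = 7.32e-06), and the value stayed negative with the trend removed (-0.59) and after centring (-0.25). MSMO1, the methylsterol monooxygenase, had 562, 456 and 676 normalised counts against 1113, 1093 and 1244. Its log2 fold change was -1.04 ± 0.14 (SE), which became 0.02 after centring. SQLE, the squalene epoxidase and a rate-limiting enzyme, had 1865, 1666 and 1794 normalised counts against 2247, 2088 and 2248, a small difference of -0.31 ± 0.07 (SE) in log2. The SQLE call was lost with median-ratio size factors taken over the listed genes (-0.07, limma adjusted p = 0.458) and with DESeq2 (-0.07, adjusted p = 0.540). The genes that were higher were TM7SF2 (a C14-reductase, log2 fold change 0.88), DHCR7 (the final reductase, 0.57), LSS (lanosterol synthase, 0.47), EBP (a sterol isomerase, 0.39) and NSDHL (a C4-decarboxylating dehydrogenase, 0.31). With the trend removed these 5 values ranged from -0.19 for TM7SF2 to -0.52 for LSS. After centring they ranged from 0.14 for TM7SF2 to -0.18 for LSS, and only LSS passed (limma adjusted p = 0.039).

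**Figure D3:**
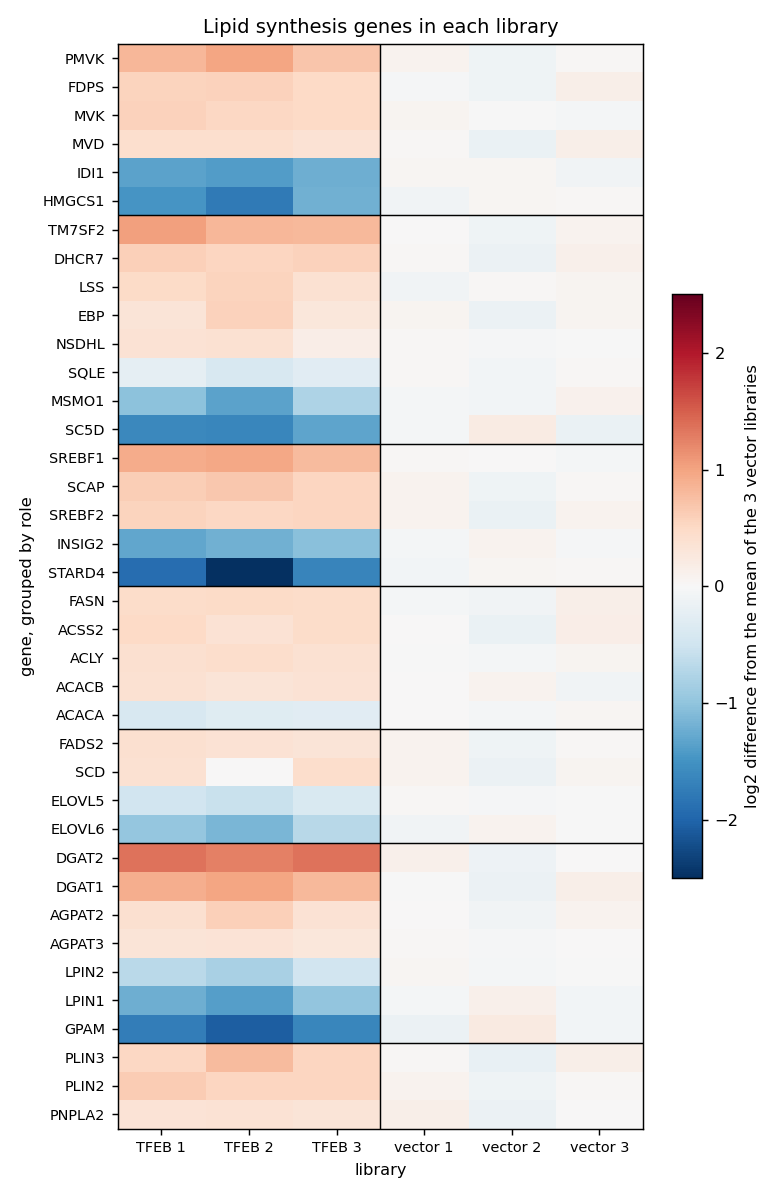
Log2 difference of each gene (y axis, grouped by role) in each of the 6 libraries (x axis) from the mean of the 3 DU145-vector libraries, red for higher and blue for lower. The 3 DU145-TFEB columns share their sign for each gene, and the second DU145-TFEB library of SCD lies near 0.

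The regulators and carriers of sterols diverged from each other as deposited. Of the 5 with a row (6 looked up), 3 were higher and 2 lower. With the trend removed 0 were higher and 4 lower, and after centring 1 was higher and 2 lower. SREBF2 had 6804, 6580 and 6657 normalised counts in DU145-TFEB and 4865, 4128 and 4869 in DU145-vector libraries, and SCAP rose 1.52-fold as deposited but stood at -0.47 with the trend removed and -0.14 after centring. SREBF1 had 1472, 1504 and 1336 against 791, 780 and 742. For both SREBF genes every DU145-TFEB library lay above every DU145-vector library, with log2 fold changes of 0.54 ± 0.08 and 0.90 ± 0.08 (SE). Both turned with the trend removed, to -0.40 for SREBF2 and -0.13 for SREBF1, and after centring SREBF2 stood at -0.06 (limma adjusted p = 0.413) and SREBF1 at 0.21 (limma adjusted p = 0.0273). INSIG2, the retention protein for SCAP, was lower, with 192, 206 and 228 normalised counts against 457, 502 and 467. Its log2 fold change of -1.19 came to -0.34 with the trend removed and -0.01 after centring. STARD4 (ENSG00000164211, chr5:111496033-111512590), a soluble carrier that moves cholesterol between membranes, fell most of the 38 genes. Its normalised counts were 163, 86.4 and 193 in DU145-TFEB and 580, 628 and 626 in DU145-vector libraries. Even the highest DU145-TFEB library was well under the DU145-vector range, and the log2 fold change was -2.12 ± 0.25 (SE; limma adjusted p = 4.32e-05). The second DU145-TFEB library was the lowest, and without it the log2 fold change was -1.78. STARD4 had the lowest GC content of the 38 genes (34.2%), and genes of like GC content had a median of -1.34. The STARD4 value was -1.22 with the trend removed and -0.88 after centring (limma adjusted p = 0.0015).

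Among fatty acid genes, 6 of the 9 with a row (11 looked up) were higher and 3 lower, with a median of 0.36, while with the trend removed 3 were higher and 3 lower, and after centring 7 were higher and 0 lower. FASN (ENSG00000169710, chr17:82078333-82098332), fatty acid synthase, had 7870, 7893 and 7854 normalised counts in DU145-TFEB and 5540, 5326 and 6266 in DU145-vector libraries. The groups were apart, and the log2 fold change was 0.47 ± 0.07 (SE; limma adjusted p = 0.000258), against 0.66 for genes of like GC content. FASN turned to -0.40 with the trend removed and stood at -0.06 after centring. ACSS2, which activates acetate, had 1329, 1212 and 1303 normalised counts against 951, 839 and 1063, and its log2 fold change of 0.44 turned to -0.38 with the trend removed. ACLY, the ATP citrate lyase, rose 1.33-fold from 8862 ± 356 normalised counts (SD, n = 3), with values of -0.18 once the trend was removed and 0.15 after centring. The paired carboxylases went opposite ways as deposited. ACACA, the cytosolic form, was lower at 1640, 1742 and 1783 normalised counts against 2174, 2082 and 2216, whereas ACACB, the mitochondrial form that restrains fatty acid oxidation, was higher at 475, 455 and 467 against 363, 384 and 342. After centring both were above 0, ACACA at 0.62 and ACACB at 0.76, and the ACACA call was lost with median-ratio size factors (-0.09, limma adjusted p = 0.293) and with DESeq2 (-0.09, adjusted p = 0.394).

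As deposited, the elongases were lower and the desaturases higher, while after centring all 4 were higher. ELOVL6, which elongates palmitate, had 502, 441 and 604 normalised counts in DU145-TFEB and 925, 1043 and 977 in DU145-vector libraries, and ELOVL5, which elongates polyunsaturated chains, had 3029, 2852 and 3238 against 4276, 4156 and 4212. Neither gene's groups overlapped, with log2 fold changes of -0.94 ± 0.12 and -0.47 ± 0.07 (SE), but both were higher after centring (0.29 and 0.47). FADS2, the delta-6 desaturase, rose 1.29-fold, and its value was -0.04 with the trend removed. SCD, the stearoyl-CoA desaturase that makes oleate, had 13995, 10803 and 14519 normalised counts against 11314, 9702 and 11194. The second DU145-TFEB library lay inside the DU145-vector range, and the log2 fold change was 0.28 ± 0.12 (SE; limma adjusted p = 0.0377). This call was lost without DU145-TFEB 1, DU145-TFEB 3, DU145-vector 2 or DU145-vector 3 (limma adjusted p 0.136, 0.118, 0.145 and 0.0573) and with quantile normalisation (0.07, limma adjusted p = 0.50). SCD lay above genes of like GC content, whose median was -0.52, and its value was 0.34 with the trend removed and 0.68 after centring.

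Of the triglyceride and lipid droplet genes, 7 of the 10 with a row (11 looked up) were higher and 3 lower, with a median of 0.40, while with the trend removed 3 were higher and 7 lower, and after centring 4 were higher and 4 lower. GPAM and DGAT2, which act at the start and the end of the route, moved in opposite directions. Of the other acyltransferases of the first step, GPAT2 had no row. GPAT3 and GPAT4 were higher as deposited, with log2 fold changes of 0.33 and 0.40. With the trend removed GPAT3 stood at 0.65, while GPAT4 turned to -0.10 and did not pass (limma adjusted p = 0.243). After centring GPAT3 stood at 0.99 and GPAT4 at 0.23. GPAM (ENSG00000119927, chr10:112149864-112215377), the mitochondrial glycerol-3-phosphate acyltransferase that starts the route, had 185, 146 and 198 normalised counts in DU145-TFEB and 551, 715 and 587 in DU145-vector libraries. The DU145-TFEB libraries were all under the DU145-vector range, with a log2 fold change of -1.81 ± 0.15 (SE; limma adjusted p = 6.81e-06), -0.83 with the trend removed and -0.49 after centring. DGAT2 (ENSG00000062282, chr11:75759512-75801535), which with DGAT1 adds the last acyl chain, had 927, 869 and 926 normalised counts against 393, 329 and 365. It was the gene that rose most of the 38, by 2.5-fold (log2 fold change 1.33 ± 0.10, SE; limma adjusted p = 4.56e-06). Listed genes of like GC content had a median of 0.48, and DGAT2 stayed higher with the trend removed (0.84) and after centring (1.18). It passed the cutoff of 1.5 with quantile normalisation (1.69), median-ratio size factors (1.57) and DESeq2 (1.56).

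DGAT1, structurally unrelated to DGAT2, rose 1.86-fold, from 701 ± 73.1 to 1305 ± 82.9 normalised counts (SD, n = 3), but stood at -0.17 with the trend removed and 0.17 after centring. Between them in the route, the acyltransferases AGPAT2 and AGPAT3 were higher and the phosphatidate phosphatases LPIN1 and LPIN2 lower. LPIN1 had 578, 520 and 681 normalised counts against 1304, 1461 and 1283, and LPIN2 had 1590, 1431 and 1824 against 2611, 2457 and 2514. Both lipins were below the median of genes of like GC content, at -1.19 against -0.47 for LPIN1 and -0.65 against -0.30 for LPIN2. LPIN2 remained lower after centring (-0.41), while LPIN1 did not pass (-0.15, limma adjusted p = 0.093). AGPAT3 kept a positive value with the trend removed (0.23), and AGPAT2 turned from 0.45 to -0.73.

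The lipid droplet proteins were all higher as deposited, but 2 of the 3 turned with the trend removed. PLIN2, the perilipin that coats droplets in most cells, had 850, 799 and 795 normalised counts in DU145-TFEB and 581, 509 and 560 in DU145-vector libraries. PLIN3, which moves from the cytosol onto new droplets, had 4632, 5620 and 4685 against 3325, 2857 and 3610. No library of one group reached the other for either gene, with log2 fold changes of 0.57 ± 0.09 and 0.61 ± 0.11 (SE). PLIN2 lay above the median of genes of like GC content (-0.26) and stayed positive with the trend removed (0.35) and after centring (0.69), whereas PLIN3 went to -0.40 and -0.06. PNPLA2, the lipase that opens triglyceride breakdown, had 1915, 1945 and 1895 normalised counts against 1660, 1359 and 1523. Its log2 fold change of 0.35 became -0.73 with the trend removed and -0.39 after centring.

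**Figure D4:**
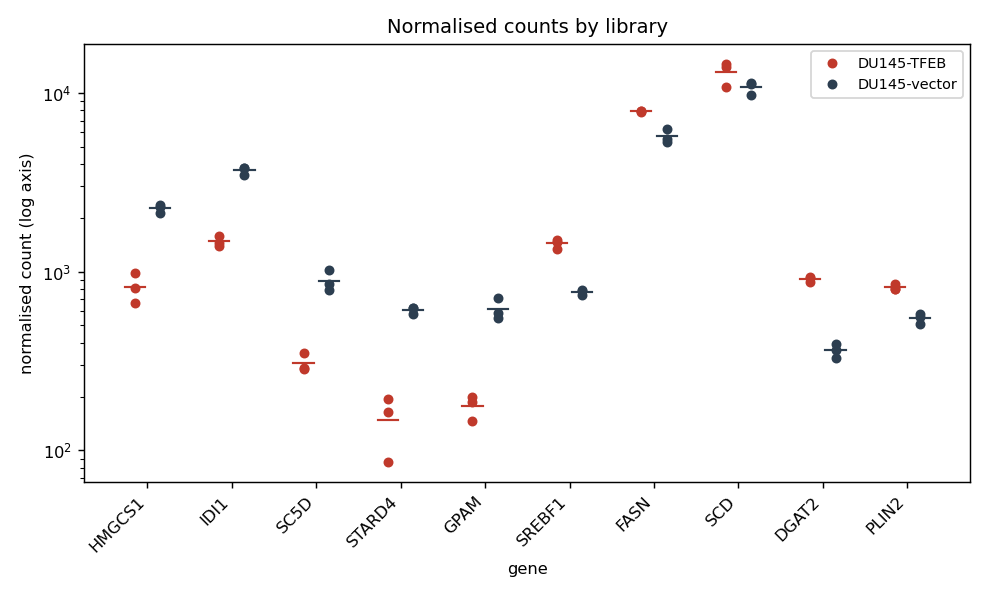
Normalised counts (y axis, log scale) of 10 lipid synthesis genes (x axis) in each DU145-TFEB (red) and DU145-vector (dark) library, with the group mean as a line. HMGCS1, IDI1, SC5D, STARD4 and GPAM lie lower and SREBF1, FASN, DGAT2 and PLIN2 higher in all DU145-TFEB libraries, while the SCD groups overlap. With the GC and length trend removed SREBF1 and FASN turned (-0.13 and -0.40). After centring SREBF1 stood at 0.21 and FASN at -0.06.

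Sterol genes and the fatty acid, triglyceride and lipid droplet genes were then compared as groups. The median log2 fold change of the 14 sterol synthesis genes exceeded that of the 19 others by 0.04 as deposited. This difference was -0.03 without DU145-TFEB 2, 0.10 without DU145-vector 3, 0.19 with quantile normalisation and -0.25 with the trend removed, so its sign differed between settings. After centring, 11 of the 19 were higher and 4 lower with a median of 0.17, against 1 higher and 5 lower of the 14 sterol synthesis genes with a median of -0.08. Within the 19, the fatty acid genes had a centred median of 0.30 and the triglyceride and lipid droplet genes of -0.11.

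Per kilobase of gene length, SCD was the most abundant of the 38 in DU145-vector cells, at 2002 ± 167 normalised counts per kb (SD, n = 3), followed by ACLY at 1699 ± 68.3 and AGPAT2 at 1238 ± 76.5. PLIN3 (1160 ± 135) and ELOVL5 (1105 ± 15.7) came next, and the steps from AGPAT2 to PLIN3 and from PLIN3 to ELOVL5 lay within the SD of PLIN3. IDI1 led the sterol synthesis genes in DU145-vector cells, at 850 ± 44.7 per kb, and fell to 339 ± 20.5 in DU145-TFEB cells. There PMVK (1208 ± 123), FDPS (1075 ± 31.4), DHCR7 (1031 ± 17.3), EBP (570 ± 61.6) and SQLE (412 ± 23.4) stood above it, and MVD (340 ± 9.67) was level with it. The lowest levels in DU145-vector cells were those of GPAM (63.0 ± 8.79), MVK (53.1 ± 2.23), DGAT2 (45.8 ± 4.08) and ACACB (25.0 ± 1.46). In DU145-TFEB cells DGAT2 reached 115 ± 4.21 per kb and GPAM was the lowest of all, at 18.0 ± 2.8.

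Other genes of the same routes, listed from general knowledge, were counted beside these. Of 16 further genes of sterol synthesis and its control, 11 had a row, 4 higher and 7 lower with a median of -0.73 (3 and 4 after centring). Of 23 genes of sterol uptake, export and storage, 12 had a row, 9 higher and 3 lower (5 and 1 after centring). SCARB1, the HDL receptor, named like LIPA after its values were seen, rose by 1.11 and stayed higher after centring (0.65), as did LIPA, the lysosomal acid lipase that frees cholesterol from its esters (0.48 and 1.42). Of 36 further genes of fatty acid synthesis and activation, 23 had a row, 12 higher and 11 lower (10 and 6 after centring), and of 28 further triglyceride and lipid droplet genes, 11 had a row, 7 higher and 4 lower (6 and 3 after centring). The lower DEGs of these lists were MBTPS2, OSBPL8, ELOVL7, HACD2, ACSL4, LCLAT1 and LDAH, with log2 fold changes from -1.68 to -2.07, and their GC contents ran from 35.5% to 42.0%. After centring, 5 of the 7 had values of -0.52 to -1.09, while MBTPS2 and OSBPL8 stood at -0.29 and -0.28. Of 26 genes of fatty acid oxidation, the route opposed to synthesis, 17 had a row, 11 higher and 6 lower (11 and 2 after centring). CPT1A, which admits fatty acids to mitochondria and is inhibited by the malonyl-CoA that ACACA and ACACB make, stood at 1725 ± 78.6 against 1007 ± 54.3 normalised counts (SD, n = 3), with a log2 fold change of 0.78 and a centred value of 0.73.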

How the data were processed

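The authors deposited 1 table of normalised counts (signal) for 6 libraries (NEBNext Ultra kit, Novogene), that is, reads per gene divided by a size factor. CASAVA 1.8, HISAT2 2.1.0, edgeR and GRCh38 are named in the submitters' processing notes. The counting program and its use of strand are not given in the sources used here, so overlapping and antisense genes are uncertain. Gene positions equalled GENCODE 29 for 10531 of 10542 genes. Deposited group means, fold changes and p-values were not used, except to check that 0 rows had an adjusted p of 0.05 or more. Libraries were grouped by their labels.

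Log2(normalised count + 1) was tested with limma 3.58.1 (mean-variance trend, no block, R 4.3.3), adjusted over all 10542 genes by Benjamini-Hochberg; DEGs also had an absolute log2 fold change above 1.5. The design had named limma for normalised values. All values were whole multiples of 1 step per library (tolerance 0.01), and the recovered reads were tested with edgeR 4.0.16 and DESeq2 1.42.0. GC content came from the longest GENCODE 29 transcript. The trend against GC content and length was removed by loess (span 0.5). Scripts were tested on simulated data. Other alternatives were pseudocounts of 0.5 and 8, a minimum of 10, median-ratio and quantile normalisation, the replicate block and each library left out. Centring after trend removal was chosen after seeing the data. Members and lists were chosen with earlier results of these data known. Genes printed for each library were 14 fixed genes (12 with a row) and the 2 with the largest change per role. ACACB and LPIN2 were printed for each library outside this rule. They and others were named after their values were seen. Libraries of 1 group differed by more than sampling noise (chi-square per gene of at least 2.97). Correlations of deviations between libraries of the same number were -0.02, -0.25 and -0.14. With 3 libraries per group these cannot show whether libraries of the same number were prepared together. Some items are not reported here.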

Additional observations from a re-analysis of the deposited data

How the results depend on the processing

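Pseudocounts, a minimum of 10 in every library and edgeR changed no direction and no call at adjusted p below 0.05 of the 38 genes. With 3 libraries per group the p-values rest on few samples, and the listed genes were selected on the same libraries, so size factors taken over them share that selection. Depth was not limiting, with at least 95 reads in every library for each gene. With the replicate block, 25 genes were higher and 13 lower, as without it; 0 of 3 DU145-TFEB libraries correlated best with the DU145-vector library of their own number. The block with trend removal gave 6 higher, 25 lower and 0 lower DEGs, and the same medians and fold changes as trend removal alone.

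With the GC and length trend removed, 6 genes were higher and 26 lower, with 0 lower DEGs. The median log2 fold change was -0.42 for sterol synthesis, -0.039 for fatty acid and -0.44 for triglyceride and lipid droplet genes, and the difference of sterol from the rest was -0.25. Genes that turned were ACACA (0.28), ELOVL5 (0.14), ACLY (-0.18), ACSS2 (-0.38), AGPAT2 (-0.73), DGAT1 (-0.17), DHCR7 (-0.42), EBP (-0.42), FADS2 (-0.039), FASN (-0.40), FDPS (-0.36), LSS (-0.52), MVD (-0.67), MVK (-0.46), NSDHL (-0.30), PLIN3 (-0.40), PNPLA2 (-0.73), SCAP (-0.47), SREBF1 (-0.13), SREBF2 (-0.40) and TM7SF2 (-0.19). With the libraries also centred, 13 were higher and 11 lower with 0 lower DEGs, the median was -0.080 for sterol synthesis and -0.11 for triglyceride and lipid droplet genes, and the difference was again -0.25. Genes that turned were ACACA (0.62), ELOVL5 (0.47), ELOVL6 (0.29), MSMO1 (0.025), SQLE (0.12), ACSS2 (-0.043), AGPAT2 (-0.39), DHCR7 (-0.080), EBP (-0.081), FASN (-0.064), FDPS (-0.020), LSS (-0.18), MVD (-0.33), MVK (-0.12), PLIN3 (-0.060), PNPLA2 (-0.39), SCAP (-0.14) and SREBF2 (-0.060). The cause was not tested.

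The number of higher DEGs was 1 (DGAT2) instead of 0 with median-ratio size factors, quantile normalisation, DESeq2 or a cutoff of 1, and the number of lower DEGs was 2 with edgeR, DESeq2 or median-ratio size factors (SC5D being lost), 1 with quantile normalisation and 8 with a cutoff of 1. For median-ratio size factors, quantile normalisation, edgeR and DESeq2 in this order, medians were 0.64, 0.57, 0.47 and 0.64 for sterol synthesis, 0.60, 0.27, 0.44 and 0.60 for fatty acid genes, and 0.64, 0.48, 0.48 and 0.64 for triglyceride and lipid droplet genes. The median of all genes moved too, from -0.36 to -0.12, -0.03, -0.28 and -0.11. The difference of sterol from the rest was 0.19 with quantile normalisation. Leaving out 1 library gave sterol medians of 0.32 to 0.45, fatty acid medians of 0.31 to 0.38, triglyceride and lipid droplet medians of 0.35 to 0.44, differences of -0.029 (without DU145-TFEB 2) to 0.098, 24 to 25 higher and 13 lower genes, and 2 to 4 lower DEGs. The loss of the SCD call without DU145-TFEB 1, DU145-TFEB 3, DU145-vector 2 or DU145-vector 3 is given with that gene.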
